A study of Homo sapiens with 6 samples.

Results

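The baseline described here is the transcriptome of CFPAC-1 cells that carry a control guide RNA against LACZ, a bacterial gene. CFPAC-1 is an established human line grown from a pancreatic ductal adenocarcinoma of a patient with cystic fibrosis, an inherited disease of the chloride channel CFTR. Of the 6 samples in the series, 2 belong to this group, titled LACZ_1 and LACZ_2, and they were taken from their labels alone. The other 4 carry guides against SULF2 and were not used. The labels name no drug, dose or time for the control cells, and they do not say whether the 2 samples came from separate cultures, so the spread between them may be technical. The labels describe both samples as LACZ knockdown but do not say whether the guide came with a cutting or a repressing enzyme.

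Pancreatic ducts are tubes of simple epithelium that secrete bicarbonate-rich fluid and mucus, and they are marked by simple keratins, by transcription factors such as SOX9 and by CFTR. Ductal adenocarcinomas keep much of this epithelial program. They often lose the tumour suppressors CDKN2A and SMAD4, and many secrete chemokines, proteases and matrix proteins into their surroundings.

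Transcript levels are in TPM, in which each gene's abundance is corrected for its length and every library is scaled to the same total, so levels can be compared between genes. A gene was called expressed at a TPM of at least 1 in both libraries, and ranks run from 1 for the highest mean among the expressed genes. By that rule 14896 of 59962 genes were expressed (24.8%), among them 12428 of 19945 protein-coding genes (62.3%). Counts of list members below are to be read beside this 62.3%. A further 516 protein-coding genes reached the threshold in 1 library only and 7001 in neither, of which 3901 were listed at 0 in both. Just inside the threshold lay CCDC7 (1.8 and 1 TPM) and CCDC74B (1 and 1.83), and just outside it ANKRD45 (0.99 and 1.42) and BORCS8-MEF2B (0.99 and 2.15). Expressed protein-coding genes had a median of 21.0 TPM, and 129 of them had a mean of at least 1000. Mitochondrial transcripts took 10.6% and 10.7% of the 2 libraries. Sequencing depth is unknown because TPM does not keep it, so no counting interval is given and n is 2 throughout.

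Between the 2 libraries the median absolute difference was 0.12 on the log2(TPM + 1) scale over expressed genes, and 95% of those genes lay within 0.71. In 391 expressed genes (2.62%) the libraries differed by more than 2-fold on that scale. These values leave out genes below 1 TPM in either library, and without that filter 1369 genes differed by more than 2-fold. Across expressed genes, which are not independent replicates, Pearson's r was 0.978.

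**Figure D1:**
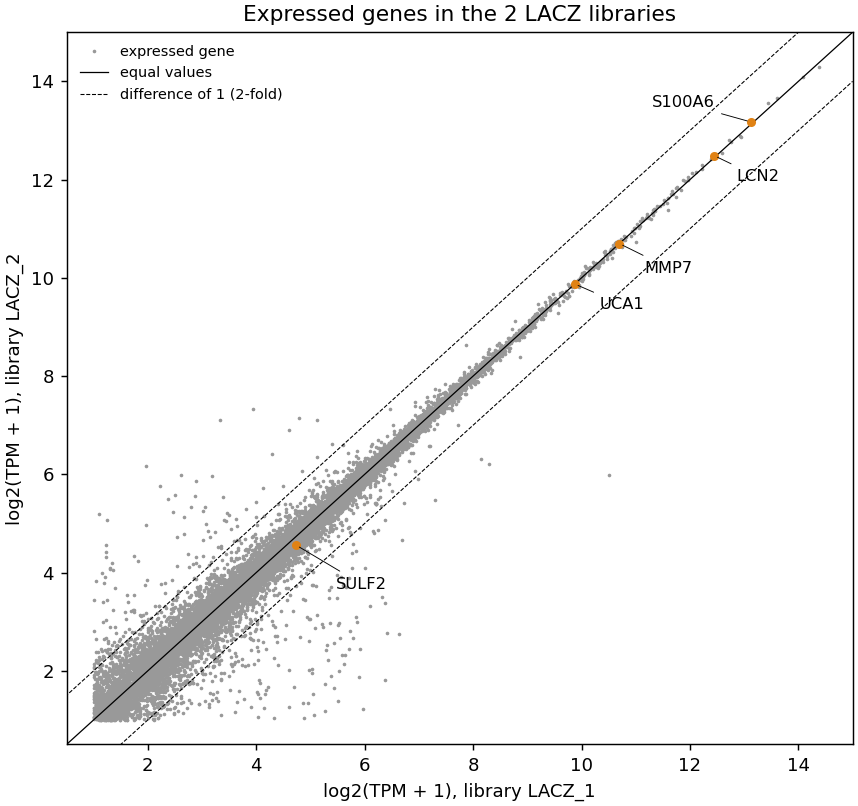
Each point is an expressed gene, placed by its log2(TPM + 1) in LACZ_1 and in LACZ_2, with dashed lines at a difference of 1. Points narrow around the line of equal values as levels rise, and the named genes S100A6, LCN2, MMP7, UCA1 and SULF2 all lie between the dashed lines.

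The highest nuclear protein-coding gene was S100A6, a calcium-binding protein, at 8907 and 9246 TPM (rank 5). The 20 highest were mostly genes of translation and of the cytoskeleton. Ribosomal protein genes among them were RPS27 at 6765 and 7123, RPL41 at 4796 and 4997, RPS23 at 4177 and 4485, RPS18 at 3758 and 4100.1, RPLP0 at 3490.2 and 3681, RPL19 at 3423 and 3617 and RPL10 at 3100.2 and 3142 TPM, beside the elongation factor EEF1A1 at 5717 and 5878. The actin-sequestering thymosins TMSB10 and TMSB4X reached 6905 and 6981 and 4443 and 4538 TPM, and the actins ACTG1 and ACTB 5391 and 5444 and 2950.3 and 3089. Only 1 of the 20, LCN2, counted as secreted by the table's own annotation terms (defined with the secreted products). The remaining members were the metal-binding MT2A (4798 and 4758 TPM), the prolyl isomerase PPIA (3821 and 4017), the class I light chain B2M (3671 and 3539), the glycolytic enzyme GAPDH (3243 and 3499), the membrane-binding ANXA2 (3295 and 3338) and the iron-storage subunit FTH1 (3089 and 3165). Among genes of other types UCA1, a long non-coding RNA first described in bladder cancer, stood at 938 and 938 TPM (rank 144), beside the mitochondrial MT-RNR2 (7800.1 and 7597), MT-RNR1 (1059 and 1059.8) and MT-TS1 (925 and 977) and the pseudogene RPL23AP42 (1529.9 and 1622). The pseudogene shares sequence with RPL23A, so its value is uncertain.

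The label of a ductal line was examined first through keratins, the intermediate filaments of epithelia. Simple keratins were among the highest transcripts of these cells. KRT19, the classical duct keratin, was at 2915 and 2909 TPM (2912 ± 3.85, SD, n = 2; rank 33). KRT8 was at 2342 and 2382, its partner KRT18 at 1918 and 1859, and KRT7 at 1021 and 1035. The order KRT19, KRT8, KRT18, KRT7 was the same in both libraries, and no value of one of these genes reached the range of the next. These 4 held 96.7% of the TPM of the 15 keratins in each library. Keratins of stratified epithelium were lower and mixed: KRT5 at 60.5 and 61.5, KRT17 at 48.9 and 47.5 and KRT6A at 4.66 and 3.76 TPM were expressed, while KRT14, the usual partner of KRT5, was listed at 0 in both libraries and KRT6B stood at 0.13 and 0.18. Near-identical copies such as KRT6A and KRT6B, or KRT16 and KRT17, can share reads, and how these were divided is not stated.

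Transcription factors of duct and gut epithelium lay on both sides of the threshold, some of them close to it. Of 29 on the list, 15 were expressed (51.7%, against 62.3% of all protein-coding genes). The epithelial ETS factor EHF led with 194 and 194 TPM (rank 715), followed by KLF5 at 129.6 and 132 and ELF3 at 127 and 131, whose ranges overlapped. SOX9, which maintains duct progenitors, was at 69.2 and 65.3, above the median of expressed protein-coding genes in both libraries. SOX2, better known from stem cells and squamous epithelium, stood at 37.5 and 36.5, level with GRHL2 (37.3 and 32.6), a grainyhead factor that sustains epithelial junctions. The Notch target HES1 was at 24.6 and 20.3 TPM. Endoderm factors were lower: GATA6 at 12.8 and 13.1, FOXA1 at 13.5 and 14.1, FOXA2 at 8.18 and 9.21, FOXA3 at 8.22 and 8.4, MNX1 at 8.66 and 11.4, HNF4G at 4.97 and 5.85 and ONECUT2 at 1.42 and 1.51. PDX1, the pancreatic homeobox factor, fell just below the threshold at 0.94 and 0.81 TPM. Gut and liver regulators were also below it, with HNF4A at 0.18 and 0.31, ONECUT1 at 0.22 and 0, ONECUT3 at 0.01 and 0.05, PROX1 at 0.08 and 0.20 and NR5A2 at 0.20 and 0.13, and CDX1 and GATA5 listed at 0. GATA4 was at 0.83 and 0 and CDX2 at 1.11 and 0.29, the only one of the 29 that reached the threshold in a single library. The acinar regulators PTF1A and RBPJL were listed at 0, and TP63, the master factor of squamous basal cells, was at 0.12 and 0.05.

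Genes for duct fluid secretion were present for the general ion machinery and low for the best-known duct channel. CFTR, the cyclic AMP-regulated chloride channel named for cystic fibrosis, was at 0.30 and 0.38 TPM, below the threshold in both libraries. SCTR, the receptor for secretin, the hormone that opens CFTR, was listed at 0. The calcium-activated chloride channel ANO1 was at 69.9 and 64.97 TPM (rank 2340) and the potassium channel KCNN4 at 41.7 and 41.6. ANO1 was therefore the higher of the chloride channels in both libraries. Of the 22 transport genes 15 were expressed (68.2%, against 62.3% of all protein-coding genes). The sodium pump subunit ATP1B1 led with 609 and 575 TPM. The water channel AQP5 was at 163 and 169, the anion exchanger SLC4A2 at 151 and 158, the loading cotransporter SLC12A2 at 120.02 and 121 and the sodium channel subunit SCNN1A at 58.3 and 58.04. Lower members were CA2 (17.7 and 17.5), AQP3 (14.4 and 16.4), the apical bicarbonate exchanger SLC26A6 (9.65 and 6.92), CA9 (2.13 and 6.26), the basolateral bicarbonate importer SLC4A4 (1.95 and 2.1) and SLC9A3 (1.99 and 1.5). AQP1, the other duct water channel, was at 0.41 and 0.93, CA12 at 0.26 and 0.43 and KCNQ1 at 0.04 and 0.43, and SLC26A3 and KCNE1 were listed at 0.

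Mucins, the glycoproteins of the epithelial coat, were led by the membrane-bound MUC4 and MUC1. MUC4 was at 435 and 553 TPM and MUC1 at 464 and 333. Their order differed between the libraries, MUC1 being higher in LACZ_1 and MUC4 in LACZ_2, so the 2 could not be ranked. The gel-forming MUC5AC was at 36.1 and 34.03 and the large membrane mucin MUC16, which carries the CA125 antigen, at 26.2 and 26.98. MUC6 was less certain, at 33.1 and 12.3 TPM, a difference of more than 2-fold between replicates. Among trefoil factors, which are secreted with mucus, TFF2 was at 42.4 and 38.1 and TFF1 at 21.8 and 17.7, and TFF3 was listed at 0. In all 9 of 17 members were expressed (52.9%, against 62.3% of all protein-coding genes). MUC2, the intestinal gel-forming mucin, stood at 0.05 and 0.10. MUC3A was at 0.57 and 0.37, MUC12 at 0.16 and 0.28 and MUC13 at 0.54 and 0.45. Mucin transcripts hold long tandem repeats, and how reads in repeats were counted is not stated.

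**Figure D2:**
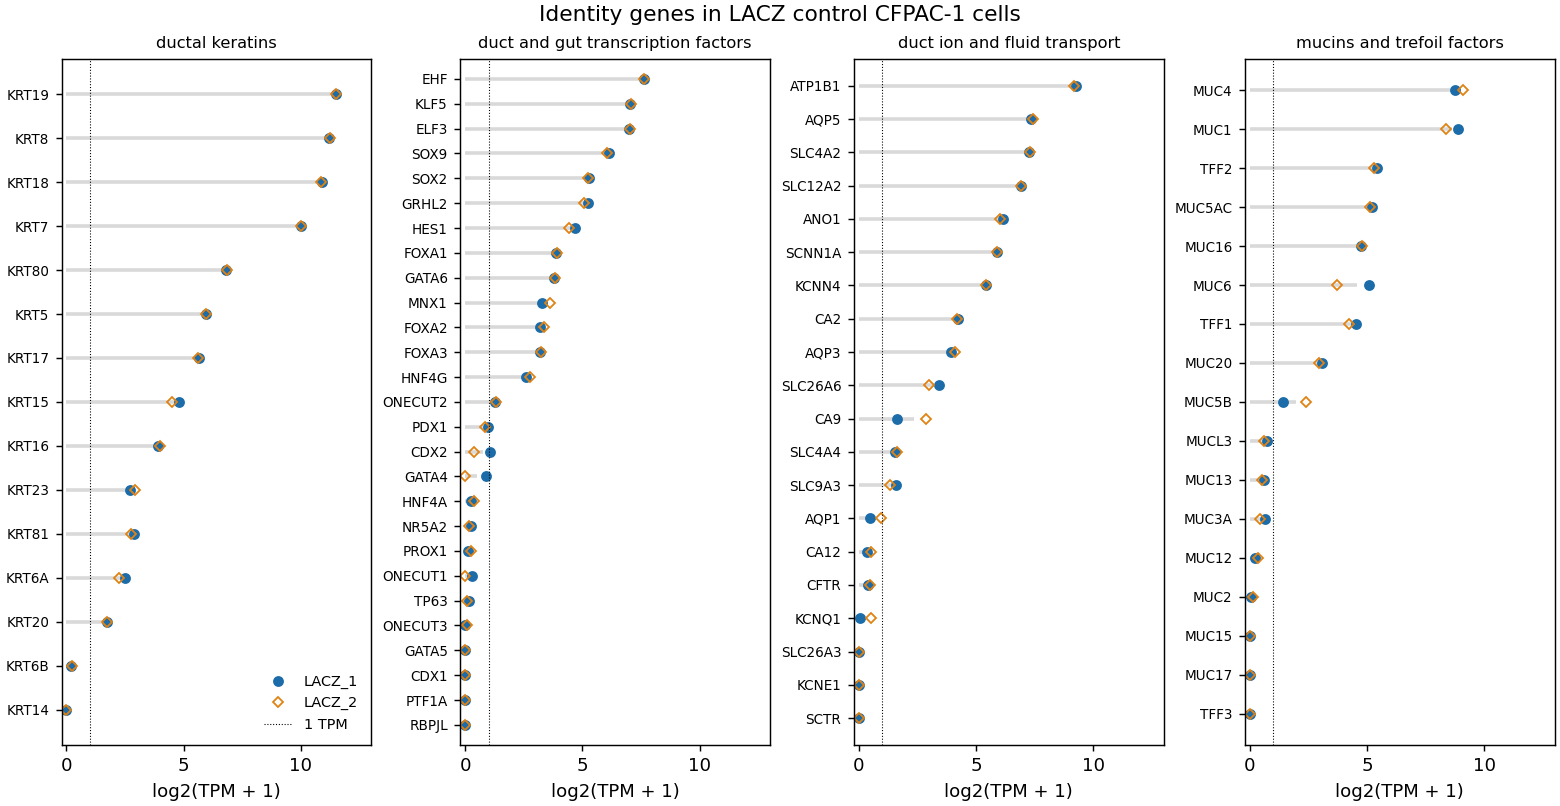
Values on the log2(TPM + 1) scale in LACZ_1 (filled circles) and LACZ_2 (open diamonds) for genes of 4 identity lists, with grey lines to the mean and a dotted line at 1 TPM. KRT19, KRT8, KRT18 and KRT7 sit at the top of the keratins, while CFTR and PDX1 lie left of the dotted line in both libraries.

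Epithelial and mesenchymal genes were both present. Of 28 junction genes 26 were expressed, led by the adhesion molecule EPCAM at 368 and 338 TPM, the catenin CTNNA1 at 327 and 329 and the claudin CLDN4 at 273 and 282. E-cadherin (CDH1) was at 137 and 139.5 TPM, and N-cadherin (CDH2), its mesenchymal counterpart, was close to it at 126 and 119.8. The lowest CDH1 value was above the highest CDH2 value. The 2 junction genes below the threshold were the gastric claudin CLDN18 (0.04 and 0 TPM) and the stratified desmoglein DSG3 (0.06 and 0.04). VIM, the filament protein of mesenchymal cells, reached 1512 and 1548 TPM (rank 84), below KRT18 and above KRT7. Fibronectin (FN1) was at 100.4 and 109 and S100A4 at 97.3 and 101. Among factors that drive the transition SNAI2, at 26.3 and 28.5, was above the 21.0 TPM median of expressed protein-coding genes in both libraries. The others were below that median: ZEB1 at 6.03 and 6.21, TWIST2 at 3.58 and 2.38 and ZEB2 at 2.47 and 1.26 were expressed, SNAI1 was at 0.67 and 0.17, and TWIST1 and PRRX1 were listed at 0. Since whole cultures were measured, VIM and keratins in the same cells and in different cells cannot be told apart.

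Genes used to sort pancreatic tumours into classical and basal-like subtypes were compared with the 62.3% of protein-coding genes that were expressed. Of 28 basal-like genes 22 were expressed (78.6%, median 21.0 TPM), and of 25 classical genes 10 (40.0%, median 0.33 TPM). The median over all protein-coding genes was 6.71 TPM. Basal-like genes were led by KRT7, UCA1, the EGFR ligand AREG at 588 and 604 TPM and the glucose transporter SLC2A1 at 371 and 349. The expressed classical genes were led by the disulfide isomerase AGR2 at 793 and 809 and the annexin ANXA10 at 199.6 and 204, followed by CEACAM6 at 29.7 and 31.9 and ST6GALNAC1 at 23.5 and 20.3. AGR2 alone held 71.1% and 71.3% of the TPM of the classical list. Below the threshold were the classical genes VSIG2 (0.14 and 0.20 TPM), AGR3 (0 and 0.41), TFF3 and CLDN18, and the basal-like genes KRT14, KRT6C (0 and 0.03), VGLL1 (0.84 and 0.78) and SPRR1B (0.19 and 0.36). No subtype was assigned, since the 2 lists have no common scale in a single cell line.

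Markers of other pancreatic and stromal cell types were mostly below the threshold. In bulk RNA, fewer cells of a type and less RNA per cell cannot be told apart. Of 22 acinar markers 3 were expressed, PRSS3 at 23.5 and 30.7, AMY2B at 4.99 and 5.84 and PRSS2 at 4.47 and 3.17 TPM, while the digestive enzymes CPA1, CELA2A and CELA3A were listed at 0, CPB1 stood at 0.05 and 0 and PRSS1 at 0.61 and 0.99. Trypsinogen and amylase genes have near-identical copies that can share reads. Of 22 islet markers 4 were expressed, SCG5 (12.6 and 10.6), ISL1 (4.3 and 4.79), PAX6 (5.07 and 2.78) and NKX6-1 (3 and 3.17), and the hormones INS, GCG, SST and PPY were listed at 0. The islet peptides IAPP and GHRL were at 0 and 2.33 and 0.26 and 0.21, so IAPP passed 1 TPM in LACZ_2 only. Fibroblast markers gave 6 of 16, with COL1A1 at 74.8 and 74.02, TAGLN at 66.4 and 68.2, RGS5 at 8.7 and 5.34 and ACTA2 at 2.21 and 5.25 TPM. The second chain of type I collagen, COL1A2, was far lower at 1.36 and 1.55, and COL3A1 and DCN were listed at 0, with COL6A3 at 0.23 and 0.09 and PDGFRA at 0.07 and 0. The leukocyte list gave 3 of 24, namely CD68 (87.7 and 86.4), a lysosomal protein that epithelial cells also make, CD14 (3.61 and 8.94) and LYZ (4.87 and 6.42). PTPRC, the pan-leukocyte CD45, was at 0.04 and 0.10, and CD3D, CD3E and CD3G were listed at 0. Endothelial markers gave 3 of 14: EGFL7 at 7.21 and 5.61, PECAM1 at 4.38 and 3.62 and ESAM at 1.99 and 1.26 TPM. CDH5 was at 0.21 and 0.19, VWF at 0.11 and 0.07 and KDR at 0.55 and 1, with FLT1 and TIE1 listed at 0. Neural markers gave 5 of 16, led by the tubulin TUBB3 (117 and 126 TPM), MBP (46.3 and 43.6), MAP2 (8.38 and 10.02) and GFAP (3.34 and 3.94), with ELAVL3 at 0.07 and 0, ELAVL4 and RBFOX3 at 0 and SYP at 0.34 and 0.34. Of 18 hepatocyte markers only CYP2E1 (1.8 and 1.84) was expressed in both libraries, with ALB at 0.23 and 1.11, APOA1 at 0 and 0.09, AHSG at 0.06 and 0.19, and APOA2 and TTR at 0.

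Tumour suppressors of pancreatic cancer were expressed with a single exception. SMAD4 (ENSG00000141646, chromosome 18, 51028394 to 51085045 on GRCh38), the common partner of TGF-beta and BMP signalling, was at 0.04 and 0 TPM, while the other 26 of the 27 genes were expressed. The neighbours of SMAD4 were read in order along the chromosome, whatever their strand. ELAC1 (chromosome 18, 50967991 to 50988121), a tRNA-processing nuclease and the nearest protein-coding gene before it, was also listed at 0 in both libraries. The genes on either side of this pair were expressed, ME2, a mitochondrial malic enzyme, at 18.8 and 16.6 TPM and MEX3C, an RNA-binding ubiquitin ligase, at 24.6 and 23.4. Of the 10 neighbours, 5 on each side, 5 were expressed: SKA1 (17.9 and 16.04), ME2, MEX3C, MBD2 (41.9 and 36.6) and POLI (20.1 and 15.6). MRO was at 0.07 and 0.36, STARD6 at 0.18 and 0.74, and MAPK4 and the netrin receptor DCC were listed at 0. Reads over the genome itself were not analysed here, so a missing gene and a silent gene cannot be told apart.

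**Figure D3:**
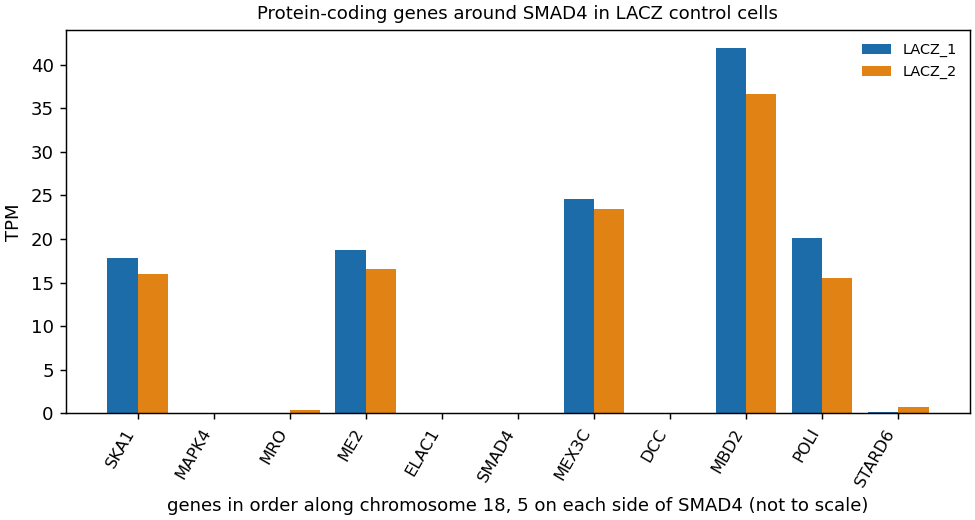
TPM in LACZ_1 and LACZ_2 of SMAD4 and of the 5 protein-coding genes on each side, in their order along chromosome 18. ELAC1 and SMAD4 show no visible bar between ME2 and MEX3C, which are between 16.6 and 24.6 TPM.

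CDKN2A (ENSG00000147889, chromosome 9, 21967753 to 21995301), which encodes the cell cycle inhibitors p16 and ARF, was the highest of the suppressors at 219.5 and 248 TPM (rank 588). A gene total does not separate the p16 and ARF transcripts. Its neighbours MTAP, a purine salvage enzyme often lost with it, and CDKN2B were at 65.7 and 70.3 and 23.3 and 26.1. The TGF-beta receptor TGFBR2 was at 99.8 and 102 and its partner TGFBR1 at 2.83 and 3.51, so the receptor chains upstream of SMAD4 were both above the threshold. The activin receptor ACVR1B was at 10.5 and 9.34. Repair genes ranged from BRCA1 at 70.6 and 67.9 and MSH6 at 36.5 and 38.6 down to ATM at 18.1 and 25.5, PALB2 at 14.1 and 12.8 and BRCA2 at 12.8 and 7.87. Chromatin regulators were at intermediate levels: SMARCA4 at 53.1 and 54.9, KMT2D at 36.8 and 35.03, ARID1A at 34.2 and 34.2, KDM6A at 26.5 and 32.9, KMT2C at 23.2 and 22.7, PBRM1 at 18.4 and 19.7 and ARID1B at 15.5 and 15.2. The kinase STK11 was at 29.6 and 31.1, the cell cycle brake RB1 at 22.8 and 20.7, the kinase MAP2K4 at 7.62 and 8.85 and the Wnt receptor ligase RNF43 at 8.11 and 7.66. TPM measures transcript level only, and sequence variants in these genes were not analysed here.

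In the RAS pathway 21 of 25 genes were expressed. HRAS was at 29.2 and 33.96 TPM and NRAS at 29.6 and 28.8, and their ranges overlapped. The highest members were GNAS, the stimulatory G protein, at 908 and 919, the transcription factor MYC at 281 and 283 (rank 484), the cyclin CCND1 at 169 and 171 and the kinase AKT1 at 114 and 121. The MYC relatives MYCN and MYCL were at 0 and at 0.26 and 0.17, so MYC was the one member of its family above the threshold. The telomerase genes TERT and TERC were at 0.18 and 0.22 and 0.50 and 0 TPM.

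Surface proteins studied as tumour antigens were expressed in 27 of 32 cases. Tissue factor (F3), which starts coagulation, led with 988 and 926 TPM (rank 140), ahead of MUC1, the hyaluronan receptor CD44 at 366 and 394 and EPCAM. Mesothelin (MSLN) was at 15.04 and 16.5 and the checkpoint ligand CD274, known as PD-L1, at 58.8 and 55.5. CEACAM6 stood above CEACAM5 (3.82 and 4.34) in both libraries. Below the threshold were CEACAM7 (0.21 and 0.06), CLDN18, ROR2, listed at 0, GPC3 (0.15 and 0.17) and DLL3 (0.50 and 0.52).

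Of 30 genes that handle gemcitabine, fluoropyrimidines or platinum, 28 were expressed. They were led by the nucleoside diphosphate kinase NME1 at 676 and 664 TPM, the efflux pump ABCC3 at 147 and 176, the ribonucleotide reductase subunit RRM2 at 147 and 134 and the fluorouracil target TYMS at 142 and 128. RRM2 and TYMS overlapped between libraries. The nucleoside transporter SLC28A2 (0 and 0.09) and the glucuronosyltransferase UGT1A1 (0.21 and 0.25) were below the threshold. Cancer-testis antigens, which are normally silent outside germ cells, had the lowest share of expressed members among the 39 lists, 1 of 24 matched, the helicase DDX43 at 10.7 and 8.68 TPM. Members at 0 included MAGEA1, MAGEA2, MAGEA3 and MAGEA4.

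Secreted products were read first from the annotation terms of the deposited table. A gene counted as secreted when it was protein coding, carried the term for extracellular region or extracellular space, and carried no term for cytosol, nucleus, nucleoplasm, cytoplasm, mitochondrion or an integral membrane component. The exact terms were chosen after values had been seen. Of 1239 such genes 375 were expressed (30.3%, against 62.3% of all protein-coding genes), and they summed to 3.01% and 3.04% of all TPM. LCN2, lipocalin 2, an iron-siderophore carrier of innate immunity, was the highest at 5588 and 5738.91 TPM (5663 ± 107, SD, n = 2; rank 12). Next came the protease MMP7, the plasminogen activator PLAU, and the chemokines CXCL5, CXCL1 and CXCL8. Further members of the top 15 were the matrix protein TGFBI (705 and 707), the disulfide isomerase P4HB (647 and 652), CXCL3, the angiogenic factor VEGFA, the calcium-regulating hormone STC2, the matricellular CCN1 (472 and 465), LGALS3BP (459 and 466) and the laminin chain LAMB1 (331 and 355). P4HB acts mainly inside the endoplasmic reticulum, and its place here follows from the terms. The terms also leave out secreted products, such as MIF (mean 1175 TPM) and PLAT (mean 983 TPM), which were above CXCL8 (mean 827 TPM). The order and the share of TPM therefore cover only the genes that passed the terms.

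Chemokines, small proteins that attract leukocytes, were concentrated in a single gene cluster on chromosome 4. Those with the amino acid motif ELR before the paired cysteines attract neutrophils through CXCR1 and CXCR2. CXCL5 was at 1506 and 1351 TPM (1428 ± 110.0, SD, n = 2), CXCL1 at 1285 and 1203, CXCL8 at 868 and 786 and CXCL3 at 647 and 637. CXCL2 was at 314 and 327 and CXCL6 at 296 and 261. The 6 took ranks 92, 105, 162, 207, 420 and 497, no range overlapped the next, and together they held 98.1% and 97.7% of the TPM of the 43 chemokines. Between CXCL8 and CXCL2 lie 9 protein-coding genes in all. The remaining 3 are platelet chemokines: PF4 at 1.01 and 2.28 TPM, PPBP at 0.56 and 0.24 and PF4V1, listed at 0. CXCL1, CXCL2 and CXCL3 are close copies of each other, as are CXCL5 and CXCL6, so the division of reads within each set is uncertain.

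The promoters of the cluster are shown because 6 of its genes were high and 3 near or at 0 side by side. Each line gives the 120 bases before the RefSeq start on GRCh38.p14, read 5′ to 3′ on the gene's strand, with the letters GGAATTTCC, a form of the NF-kB motif, in capitals. RefSeq promoters were held for 8 of the 9 genes, and PF4 had none.
CXCL8: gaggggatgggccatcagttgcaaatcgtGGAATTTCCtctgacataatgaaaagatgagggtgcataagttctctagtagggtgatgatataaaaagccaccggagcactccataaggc
CXCL6: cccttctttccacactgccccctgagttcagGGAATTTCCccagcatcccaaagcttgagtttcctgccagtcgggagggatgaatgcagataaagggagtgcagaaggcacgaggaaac
CXCL1: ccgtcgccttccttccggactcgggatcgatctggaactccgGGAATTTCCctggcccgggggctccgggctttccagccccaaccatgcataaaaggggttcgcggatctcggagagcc
CXCL5: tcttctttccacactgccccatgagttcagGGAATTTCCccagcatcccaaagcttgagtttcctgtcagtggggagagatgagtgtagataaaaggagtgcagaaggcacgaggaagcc
CXCL3: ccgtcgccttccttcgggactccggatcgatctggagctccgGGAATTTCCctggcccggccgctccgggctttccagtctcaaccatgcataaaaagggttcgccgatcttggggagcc
CXCL2: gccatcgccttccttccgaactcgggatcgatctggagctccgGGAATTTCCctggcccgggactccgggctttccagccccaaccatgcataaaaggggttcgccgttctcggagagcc
PF4V1: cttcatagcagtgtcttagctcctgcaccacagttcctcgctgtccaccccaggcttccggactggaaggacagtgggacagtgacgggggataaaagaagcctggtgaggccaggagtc
PPBP: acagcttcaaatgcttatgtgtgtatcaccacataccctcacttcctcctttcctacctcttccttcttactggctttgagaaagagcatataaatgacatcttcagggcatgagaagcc

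On the forward strand these windows are CXCL8 at chr4:73740449-73740568, CXCL6 at chr4:73836558-73836677, CXCL1 at chr4:73869273-73869392 and PF4V1 at chr4:73853176-73853295. On the reverse strand they are CXCL5 at chr4:73998678-73998797, CXCL3 at chr4:74038690-74038809, CXCL2 at chr4:74099196-74099315 and PPBP at chr4:73988191-73988310. The motif began 77 to 91 bases before the start in each of the 6 high genes: 91 in CXCL8, 90 in CXCL5, 89 in CXCL6, 78 in CXCL1 and CXCL3, and 77 in CXCL2. PPBP and PF4V1 held it nowhere in the 300 bases from 250 before to 50 after the start. Both strands of windows of that length were searched in 14892 protein-coding promoters matched by symbol. The motif was present in 63 of them (0.423%), in 43 of 9785 expressed genes (0.439%) and in 5 of 2626 genes listed at 0 (0.190%). Of the 500 genes with the highest mean TPM 6 held it (1.2%), and these are the 6 high genes of the cluster. Those genes were chosen for their level and count in the 63 and the 43, so the shares do not link motif and level. Over 59 bases centred on the motif and compared without gaps, CXCL5 and CXCL6 were identical at 58 and CXCL1 and CXCL3 at 55, while CXCL8 matched none of the others at more than 24. The copies are therefore not independent occurrences of the motif. CXCL10 and CXCL11, which attract T cells, each held the motif on the reverse strand. They were at 0.86 and 0.61 and 0.19 and 0.97 TPM. LCN2, higher than any chemokine, did not hold these exact letters, though its window holds the near match ggaatgtcc. Other forms of the NF-kB motif were not searched, so a window without these letters may still hold another form. A match to these letters is a description of the window and says nothing of whether a factor binds there.

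Outside the cluster every expressed chemokine was lower than CXCL6 in both libraries. These included the membrane-tethered CXCL16 (24.6 and 28.4 TPM) and CX3CL1 (21.5 and 22.04), the monocyte attractant CCL2 (18.3 and 22.7) and the mucosal CCL28 (13 and 13.9). In all 14 of 43 chemokines were expressed, and 19 were listed at 0 in both libraries, CCL1, CCL3, CCL4 and CCL7 among them. CCL20 was at 0.69 and 0.66 and CXCL12 at 0 and 0.47.

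**Figure D4:**
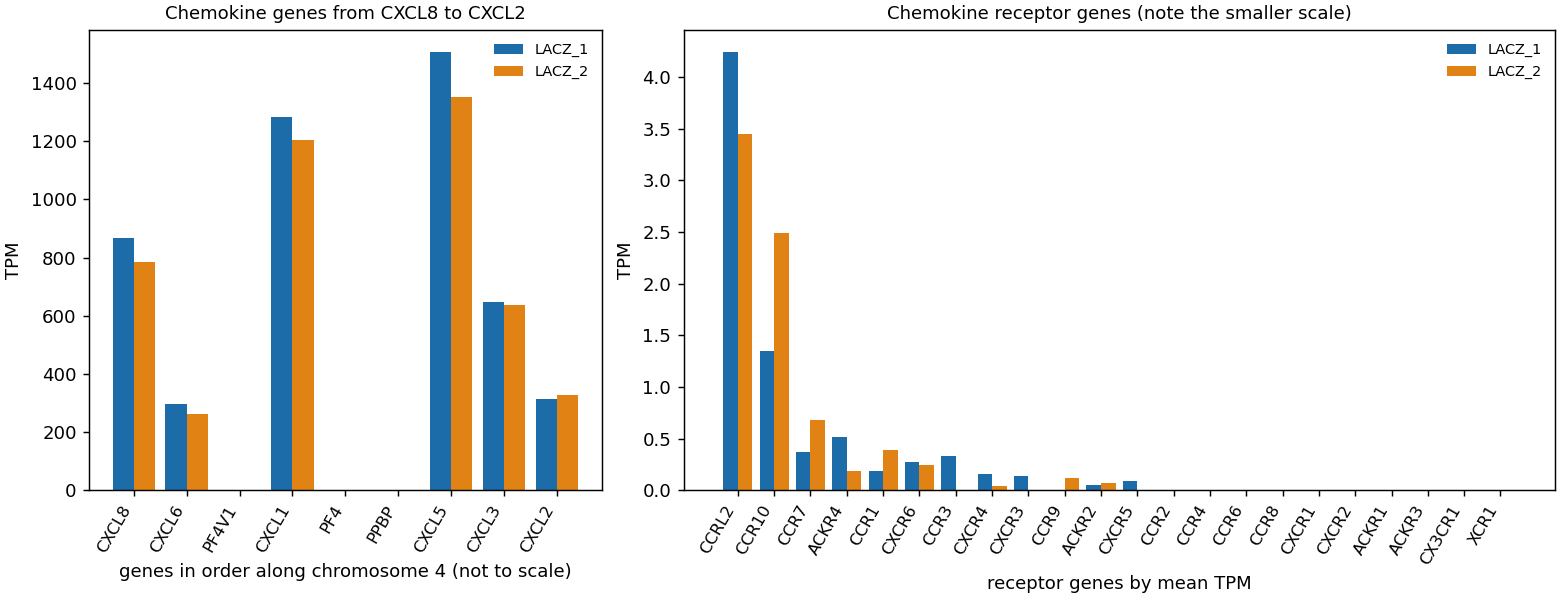
The left panel gives TPM in LACZ_1 and LACZ_2 for the 9 chemokine genes from CXCL8 to CXCL2 in gene order, and the right panel gives chemokine receptors on a scale that ends below 5 TPM. Bars of 261 TPM and above for 6 chemokines stand beside receptor bars of which only CCRL2 and CCR10 pass 1 TPM in both libraries.

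Cytokines were led by MIF, an abundant protein with chemokine-like activity, at 1167 and 1184 TPM. IL6, which signals through gp130 and STAT3, followed at 209 and 211 (rank 660), then LIF, of the same family, at 157 and 156 and IL18 at 115 and 113. The myeloid growth factor CSF2 was at 96.6 and 99.1 and CSF1 at 43.3 and 44.96. Lower members included IL1A (15.8 and 12.3), IL1B (9.2 and 8.55) and TNF (2.06 and 1.53). Of 74 cytokines 33 were expressed. IL1RN, IL2 and IL4 were listed at 0, and IL3 was at 0 and 0.08. IL15 differed between replicates, at 22.4 and 6.68 TPM.

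Of 100 growth factors 44 were expressed. VEGFA, which drives vessel growth, was at 625 and 653 TPM (rank 209). Among the EGFR ligands AREG was highest, before EREG at 554 and 529.7, HBEGF at 251 and 239.8, TGFA at 88.99 and 94.1 and BTC at 15.9 and 14.3, in that order in both libraries. EPGN and EGF itself were lowest, at 3.57 and 1.05 and 1.28 and 1.3. The heparin-binding MDK was at 418 and 423. Among TGF-beta ligands TGFB2 (172 and 169) was higher than TGFB1 (65.4 and 70.6) and TGFB3 (8.21 and 9.62), and BMP4 was at 77.5 and 77.2. The Wnt ligand WNT7B was at 74.9 and 74.3. HGF, the ligand of MET, and IGF1 and FGF10, all typical of mesenchyme, were listed at 0. NRG2 was at 0.23 and 0, FGF7 at 0.11 and 0.25, FGF9 at 0.05 and 0.42 and FGF18 at 0.

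Proteases were led by MMP7, matrilysin, a matrix metalloproteinase of epithelial cells, at 1662 and 1658 TPM (1660.1 ± 3.01, SD, n = 2; rank 73). The plasminogen activators PLAU and PLAT were at 1629.7 and 1652 and 977 and 989. The higher PLAU value came close to the lower MMP7 value without reaching it. The sheddase ADAM9 was at 435 and 425 and the membrane-bound collagenase MMP14 at 280.3 and 258. Other matrix metalloproteinases were low or absent: MMP1 at 0.23 and 0.14 TPM, MMP9 at 0 and 0.03, MMP10 at 0.04 and 0, MMP3 and MMP8 at 0, and MMP2 at 1.63 and 0.80, above the threshold in LACZ_1 only. Plasminogen (PLG), the substrate of both activators, was at 0.17 and 0.16. In all 32 of 47 members were expressed. Of 40 protease inhibitors 25 were expressed, led by the Kunitz inhibitors SPINT2 (511 and 512 TPM) and SPINT1 (179 and 186), the cystatin CST3 (172 and 169) and TIMP2 (156 and 151). Below the threshold were SERPINB2, which inhibits PLAU and PLAT, listed at 0, SERPINB3 (0.63 and 0.60), SERPINB4 (0 and 0.33) and SERPINB7 (0.27 and 0.41).

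Of 54 matrix genes 43 were expressed (79.6%). Beside TGFBI, CCN1 and LGALS3BP stood EFEMP1 at 278 and 283, THBS1 at 251 and 245 and the laminin chains LAMB1, LAMB3 at 238 and 235, LAMA5 at 233 and 235 and LAMA3 at 175 and 183 TPM. LAMA3 and LAMB3 belong to the laminin that anchors epithelia to their basement membrane, and neither was below 175 TPM in either library. The heparan sulfate proteoglycans HSPG2 and AGRN were at 162 and 169 and 157 and 164. LAMA1 was at 0.01 and 0, LAMC3 at 0.02 and 0.12, and the fibrillar collagen COL1A1 stood at 74.8 and 74.02, while COL3A1 and COL4A3 were listed at 0.

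Hormones and vasoactive peptides gave 13 of 42. STC2, stanniocalcin 2, was at 556 and 597 TPM, FAM3C at 325 and 321, the vasoconstrictor EDN1 at 139.7 and 137 and PTHLH, the hormone behind many tumour hypercalcaemias, at 127 and 131. The gut and neural hormones EDN3, CALCA, CALCB and GRP were listed at 0. Acute phase and antimicrobial genes gave 23 of 51, and LCN2 held 81.7% and 80.5% of the list's TPM. Complement C3 was at 242 and 289, APOL1 at 259 and 255, SAA1 at 189 and 194.86, complement factor CFB at 148 and 165 and the defensin DEFB1 at 121 and 177. SAA1 and SAA2 (70.98 and 87.02) are near-identical and may share reads. The hepatic CRP and HPX were listed at 0, with HP at 0.37 and 0.44 and TF at 0.14 and 0.11.

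Receptors by the table's own terms, protein-coding genes with a receptor activity term and a plasma membrane term, numbered 1420, of which 391 were expressed (27.5%, against the same 62.3%). They held 1.75% and 1.77% of all TPM. The share describes the make-up of this set, whose median was 0.02 TPM, and was not tested. The term also takes in genes that are better known for another role, such as the ribosomal RPSA (1023 and 1070.2 TPM), the coagulation starter F3, the claudin CLDN4 and the adaptor AP2M1 (187 and 213). It leaves out receptors such as ITGA3 (mean 801 TPM) and TNFRSF12A (278 and 286), so the order below covers only genes that passed the terms. ITGB1, the integrin beta chain that binds collagen and laminin with many partners, led with 1667 and 1599 TPM (rank 78). CD74, the invariant chain of MHC class II and a receptor for MIF, ranked below ITGB1 and RPSA at 999.96 and 989. The rest of the top 15 were CD44, TMEM123 (308 and 351), EPHA2, HLA-DRA (260.01 and 269.8), TNFRSF21, ITGB4, DDR1, AXL and the co-receptor NRP1 (177 and 168).

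Of 58 receptor tyrosine kinases 30 were expressed (51.7%, against 62.3% of all protein-coding genes). EPHA2, an ephrin receptor, was at 267 and 280.1 TPM, the collagen receptor DDR1 at 226 and 219, AXL at 206 and 216 and MET at 163 and 158. EGFR was at 99.3 and 103 and ERBB2 at 80.6 and 81.8. No range in this order from EPHA2 to ERBB2 overlapped the next. ERBB4 was at 0.26 and 0.29, PDGFRA at 0.07 and 0 and PDGFRB at 0.04 and 0.39, and INSRR was listed at 0. EPHA6 differed between libraries, at 56.5 and 7.51 TPM.

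Cytokine receptors gave 34 of 53 (64.2%, against 62.3% of all protein-coding genes). OSMR, the oncostatin M receptor, was highest at 124 and 120.2 TPM, followed by IFNGR1 at 76.97 and 67.4, the shared signalling chain IL6ST (gp130) at 50.7 and 62.7 and IFNGR2 at 46.3 and 39.7. IL2RA and IL5RA were listed at 0, and IL2RB and IL2RG were at 0.02 and 0.27 and 0.13 and 0.29. In the TNF receptor family 18 of 29 were expressed (62.1%, against 62.3% of all protein-coding genes). TNFRSF12A, the receptor for TWEAK, led at 278 and 286, before TNFRSF21 at 231 and 230. The soluble decoy TNFRSF6B was at 143 and 164 and the TRAIL receptor TNFRSF10B at 97.4 and 95.4. The lymphocyte receptors TNFRSF4, CD27 and TNFRSF8 were at 0 and TNFRSF9 at 0.38 and 0.52.

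Chemokine receptors were the counterpart of the chemokines: 2 of 23 were expressed, and the 23 together summed to 7.70 and 7.67 TPM. These were CCRL2 at 4.24 and 3.45 and CCR10 at 1.35 and 2.49. CXCR1 and CXCR2, which bind the 6 abundant chemokines, were listed at 0 in both libraries. CCR1 was at 0.19 and 0.39, CCR3 at 0.33 and 0 and CXCR4 at 0.16 and 0.04, and CCR2 and CCR4 were listed at 0.

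TGF-beta family receptors gave 10 of 15, with TGFBR2 far above the next, BMPR2 at 21.3 and 21.3 TPM, ACVR1 at 12.8 and 11.98 and BMPR1A at 11.7 and 12.2. ACVRL1, AMHR2 and GFRAL, the receptor for GDF15, were listed at 0. Receptors of the Wnt, Notch and Hedgehog pathways gave 17 of 24, led by the Wnt co-receptor LRP5 (119 and 134), NOTCH2 (20.9 and 23.7), LGR4 (22.3 and 20.03) and FZD2 (19.7 and 21.9). FZD8 was at 0.97 and 0.94, FZD9 at 0.25 and 0.12, FZD10 at 0.55 and 0.33 and the stem cell receptor LGR5 at 0.05 and 0.17. Among 76 G protein-coupled receptors 38 were expressed, led by the adhesion receptor ADGRF1 (174 and 169), the protease-activated F2RL1 (141 and 140.4), the retinoid-induced GPRC5A (119 and 118) and ADGRE5 (65.3 and 63.1). SCTR, CCKAR, CCKBR and VIPR2, most of them receptors for hormones that act on the pancreas, were listed at 0.

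Nuclear receptors gave 25 of 48, with NR2F2 at 110.3 and 108 TPM, PPARG at 52.8 and 51.6, ESRRA at 46.1 and 38.1 and NR1H2 at 32.5 and 39.9. The glucocorticoid receptor NR3C1 was at 36.3 and 34.9. RARB was at 0 and 0.05, RORB at 0.10 and 0.13 and NR1H4, the bile acid receptor, at 0.05 and 0.09. NR0B1 was at 58.2 and 0, so it was not expressed by the rule despite its level in LACZ_1. Pattern recognition receptors gave 13 of 25, led by the RNA sensors RIGI (26.3 and 25.4), DHX58 (20.02 and 18.3), TLR3 (15.3 and 14.5) and IFIH1 (14.1 and 14.3). TLR5 was at 0.13 and 0.74, TLR7 at 0 and 0.01, and TLR8 and TLR9 were listed at 0.

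Of 26 integrin chains 16 were expressed (61.5%, against 62.3% of all protein-coding genes). After ITGB1 came its partner ITGA3 at 789.7 and 812 TPM, ITGB4 at 223 and 237 and ITGA6 at 126 and 119, which form laminin receptors in these combinations. ITGA2B was at 0.44 and 0.60, and ITGA8, ITGA9 and ITGAD were listed at 0. Uptake receptors gave 23 of 28, the highest including LRP10 (125 and 132), the syndecan SDC1 (87.8 and 159.7) and the transferrin receptor TFRC (119.99 and 119). The SDC1 values, higher in LACZ_2, spanned the ranges of LRP10 and TFRC. LRP2 was at 0.07 and 0.04, CD36 at 0.15 and 0.08, SDC2 at 0.02 and 0.20 and GPC3 at 0.15 and 0.17.

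Ligands and receptors were then read together over 156 known pairs. Both partners were expressed in 61 pairs, the ligand alone in 43, the receptor alone in 27 and neither in 25. A pair describes transcripts in the same culture and no signalling was measured. With both present, the highest ligands were PLAU with its receptor PLAUR (80.7 and 83.4 TPM), MIF with CD74, and AREG, EREG and HBEGF with EGFR. IL6 met its specific receptor IL6R at only 2.17 and 3.37 and LIF met LIFR at 7.3 and 6.63. The highest ligands whose partner was below the threshold were LCN2 with SLC22A17 (0.53 and 0.32), CXCL5 and CXCL1 with CXCR2, and CXCL8 with CXCR1 and with CXCR2. VEGFA was paired only with FLT1, listed at 0, and KDR, which reached 1 TPM in LACZ_2 only. The co-receptor NRP1 (177 and 168 TPM) was paired only with SEMA3A, so VEGFA was not read against it. Pairs with the receptor alone included TFRC opposite TF and IFNAR1 (40.8 and 34.6) opposite IFNB1 (0 and 0.33). Also among them were NTSR1 (17.3 and 17.4) opposite NTS (0.13 and 0.13) and FAS (22.9 and 17.9) opposite FASLG (0.13 and 0.04). This class describes the pair, and another ligand of the same receptor may be expressed. FZD5, for example, was in it with WNT5A (0 and 0.02 TPM), while its other paired ligand WNT7B was expressed. By ligand level that class was headed by CRLF2 (1.22 and 1.69) with TSLP (0.66 and 0.77), FZD7 (11.7 and 11.99) with WNT11 (0.40 and 0.24), IFNLR1 (5.29 and 5.32) with IFNL1 (0.13 and 0.25) and FGFR2 (7.03 and 7.84) with FGF7. The highest pairs with neither partner included CCK (2.23 and 0.78) with CCKAR, NRG4 (1.27 and 0.64) with ERBB4, CXCL10 with CXCR3 (0.14 and 0) and CCL20 with CCR6, listed at 0. CCK and NRG4 each passed 1 TPM in LACZ_1 only.

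Over all 39 lists, 661 of 1222 distinct members were expressed, and in 16 lists the share exceeded the 62.3% of all protein-coding genes. The lists hold well-studied genes of unequal kinds, so a share above or below that level describes the list and was not tested. Within lists, 240 neighbouring genes in order of level were compared, up to 8 such pairs a list in the identity, tumour, secreted and receptor classes. In 55 of the 240 the values of the 2 genes overlapped between libraries, so their order is not settled by these samples.

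**Figure D5:**
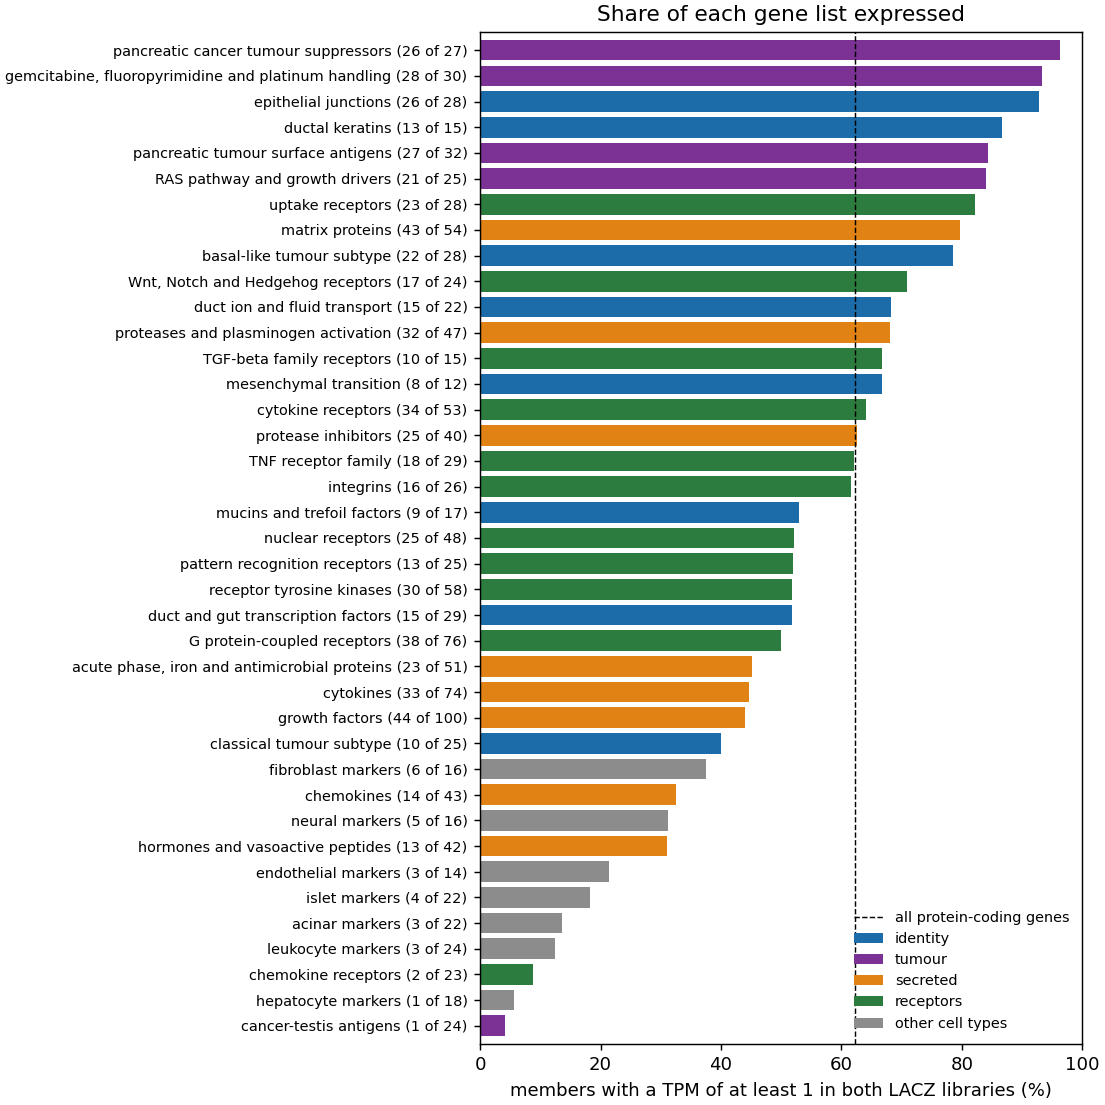
Bars give the percentage of each list's members with at least 1 TPM in both LACZ libraries, coloured by class, with the counts in the labels and a dashed line at the 62.3% of all protein-coding genes. Tumour suppressors are at the top with 26 of 27, and hepatocyte markers, chemokine receptors and cancer-testis antigens at the bottom.

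Some genes differed between the replicates far beyond the typical spread. Among 9545 genes with a mean of at least 10 TPM, 313 differed by more than 2-fold, 194 higher in LACZ_1 and 119 higher in LACZ_2, and 134 of the 313 were below 1 TPM in the lower library. The largest differences with LACZ_1 higher were DISC1FP1 (74.01 and 0 TPM), RF02199 (68.4 and 0), NR0B1, TTC28 (70.9 and 0.38) and DSCAM (38.95 and 0). Those with LACZ_2 higher were RPL39P36 (0 and 87.8), QRFPR (0 and 65.3), EGFEM1P (0 and 49.8), PEBP4 (0 and 46.95) and UNC5C (0.61 and 61.03). With only 2 libraries neither value can be called the outlying one, and such genes are given here by both values. SULF2, the gene targeted in the rest of the series, was at 25.7 and 22.5 TPM (rank 5869).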

How the data were processed

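RNA-seq of 2 CFPAC-1 samples with a LACZ control guide was analysed, from total RNA extracted with TRIzol per the labels. The authors deposited TPM values, length-corrected abundances scaled to the same total in every library, for 59962 genes. Tools in the submitters' processing notes are HISAT2 (2.1.0), RSEM (1.3.1) and DESeq2 (1.24.0), with GRCh38 as the genome build. Not given in the sources used here: annotation release, strandedness and treatment of shared reads. Gene types and coordinates came from GENCODE 29, which held 58611 of 58884 Ensembl identifiers, and 1078 loci carry names from the authors' assembly.

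Values were used as deposited, in Python 3.11.15 with pandas 2.3.3, numpy 2.4.6 and matplotlib 3.10.9. Means and SDs are over 2 libraries, no test was made, and the only comparison is between genes and between replicates. Differences between replicates are on the log2(TPM + 1) scale, which understates those of low genes. Of 1303 entries in 39 lists, 1298 were found by symbol, 4 by identifier (TGFB1 among them) and 1 was missing. Members, lists and pairs were chosen with earlier results of these data known. Named were the 20 highest nuclear protein-coding genes, the 5 highest others, the 15 highest secreted genes and receptors by annotation term, per list the 4 highest expressed and up to 4 members below 1 TPM, all tumour suppressors, duct factors and transport genes, up to 5 pairs per class and 5 genes per library among those that differ most. Clone names were left out, and some genes under this rule are not reported here. Further list members were named after their values were seen. Counting and ranking were tested on simulated data that held no genes near the threshold. That test therefore checks the code and says nothing of calls near 1 TPM. Alternatives were thresholds of 0.5, 2 and 5 TPM, either library, each library alone, removal of mitochondrial genes, protein-coding genes only and pseudocounts of 0.1 and 5.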

Additional observations from a re-analysis of the deposited data

How the results depend on the processing

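No paired analysis was possible because a single group was described and no result comes from a test between groups. The count of expressed genes was 14896 and stayed between 11165 (threshold of 5 TPM) and 16888 (either library) over the 7 alternatives, and that of list members was 661 against 498 to 713. Both partners of a ligand and receptor pair were expressed in 61 cases, 65 at a threshold of 0.5 TPM, 45 at 2 TPM and 32 at 5 TPM, with 61 and 62 in the single libraries. The highest 100 genes held 32.6% of TPM (32.4% and 32.7% in the single libraries), 26.7% without mitochondrial genes and 33.5% among protein-coding genes only. Expressed genes that differed by more than 2-fold between the libraries numbered 391, against 584 with a pseudocount of 0.1, 193 with a pseudocount of 5, 1369 without a filter on low values and 55 with at least 10 TPM in both, and a library cannot be left out of that count. At a threshold of 5 TPM, 16 of the 39 lists held fewer than 2 of every 3 members counted before, and at 2 TPM 2 lists did, chemokine receptors (1) and hepatocyte markers (0). Hepatocyte markers numbered 2 at 0.5 TPM, in either library and in LACZ_2 alone, against 1 by the rule. Ranks of 184 genes under the naming rule moved by a median of 1.95% of their value in LACZ_2 alone and 1.94% in LACZ_1 alone. The largest moves were 25.8% and 46.1%. Among protein-coding genes only, 183 ranks moved by a median of 4.75% and at most 15.5%. Depth is unknown, so a gene listed at 0 may lie below detection.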

Other observations

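The gene groups described here were chosen after their values had been seen. MHC class II genes present antigen to CD4+ T cells and are usually confined to immune cells unless induced. A list of class II pathway genes and their regulators CIITA, RFX5, RFXANK and RFXAP had 13 of 15 expressed, beside 62.3% of all protein-coding genes. The regulators RFX5 (49.3 and 56.6 TPM) and RFXANK (58.4 and 59.1) count among the 13. CD74 was at 999.96 and 989 TPM, HLA-DRA at 260.01 and 269.8 and HLA-DRB1 at 118 and 134, with the master activator CIITA at 14.8 and 13.1. HLA-DQA1, at 0.02 and 0.58, was the only member below 1 TPM in both libraries, and its partner HLA-DQB1 was at 15.8 and 17.9. RFXAP was at 1.64 and 0.72. These genes are highly variable between people, and the effect of reads that differ from the reference was not tested. Class I genes gave 9 of 10, with B2M at 3671 and 3539 and HLA-C at 1122 and 1129. Of the 24 leukocyte markers 3 were expressed, the myeloid CD68 (87.7 and 86.4 TPM), CD14 (3.61 and 8.94) and LYZ (4.87 and 6.42), and the list summed to 97.04 and 103.65 TPM. Others below the threshold included PTPRC (0.04 and 0.10), CSF1R (0 and 0.36) and SPI1 (0.17 and 0), with MS4A1, CD79A, TYROBP and FCER1G at 0. ITGAM, at 0 and 1.18 TPM, passed the threshold in LACZ_2 only. The part of any leukocytes in the class II levels was not tested.

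HOX genes, which record position along the body axis, were highest in the HOXB cluster. In the HOXB cluster 8 of 10 genes were expressed, beside 62.3% of all protein-coding genes. They were led by HOXB6 at 148 and 153 TPM, HOXB9 at 84.3 and 87.3 and HOXB2 at 67.7 and 72.5. HOXB1 and HOXB13 at the ends of the cluster were listed at 0. HOXA gave 6 of 11, the highest being HOXA3 at 15.01 and 16.7 and HOXA10 at 11.7 and 11.01. HOXC gave 1 of 9, HOXC4 at 1.17 and 1.03, and HOXD none of 9. The summed level of the clusters was 414 and 424 TPM for HOXB, 41.1 and 42.3 for HOXA, 1.46 and 1.44 for HOXC and 0.17 and 0.89 for HOXD.

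In the SMAD family 6 of 8 genes were expressed. The TGF-beta mediators SMAD3 and SMAD2 were at 82.3 and 88.5 and 43.9 and 41.2 TPM, the BMP mediators SMAD5 and SMAD1 at 24.4 and 25.6 and 21.3 and 24, and the inhibitory SMAD6 and SMAD7 at 21.1 and 16.2 and 7.33 and 9.17. SMAD9 was at 0 and 0.10, beside SMAD4 at 0.04 and 0.

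Promoter composition differed between expressed genes and genes listed at 0, as a description. The letters CCGCCC, a GC box, were found on either strand in 70.5% of 9785 expressed promoters and 28.6% of 2626 promoters of genes listed at 0. TATAAA, the TATA box, was in 5.39% and 21.1%, and in 10.6% of the 500 genes with the highest mean TPM.

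The share of protein-coding genes expressed was 46.7% on chromosome X, 53.6% on chromosome 11 and 55.4% on chromosome 21, and reached 69.7% on chromosome 14. On chromosome 18, which carries SMAD4, it was 63.2%.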
